A study of Mus musculus with 18 samples.

Results

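The 3 uncoupling proteins Ucp1, Ucp2 and Ucp3 and 4 genes known from brown fat, Cidea, Elovl3, Dio2 and Prdm16, were followed in quadriceps myofibers of mice given prednisone, a synthetic glucocorticoid. They were chosen by name, as 7 of the 43430 genes in the count table, and each was found there. RNA came from C57BL/6 mice of both sexes that were injected intraperitoneally for about a month with vehicle (DMSO in phosphate-buffered saline), with prednisone once a week and vehicle on the other injection days, or with prednisone daily. The 18 libraries, each from a separate mouse, form 6 groups of 3 by sex and treatment, so that p-values measure the spread between mice. After collagenase II digestion, what a strainer held back was taken as myofibers, and cells that cling to the fibers can come along. In such bulk samples, fewer cells of a type and less RNA per cell cannot be told apart.

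Brown adipocytes burn fuel to make heat. UCP1, in the inner mitochondrial membrane, lets protons return to the matrix without making ATP, and its gene is the defining marker of brown and beige fat cells. Glucocorticoids act through a nuclear receptor that binds DNA, and noradrenaline drives Ucp1 in brown fat through cyclic AMP. UCP3 is the uncoupling protein typical of skeletal muscle, where fasting and fatty acids raise it, while UCP2 is found in many tissues, immune cells among them.

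The stretches upstream of the 3 uncoupling protein genes and of Dio2 are shown because Ucp1 varied most and its relatives Ucp2 and Ucp3 little, and because Dio2 is the other brown fat gene with a promoter at hand that lay above vehicle in a treated group. RefSeq promoters (GRCm38.p6) were matched for 5 of the 7 genes, those of Cidea and Elovl3 not being among them. Each line gives the 250 bases before the RefSeq transcription start, 5′ to 3′ on the strand of the gene. These are chr8:83290098-83290347 (plus strand) for Ucp1, chr7:100493108-100493357 (plus strand) for Ucp2, chr7:100472741-100472990 (plus strand) for Ucp3 and chr12:90739039-90739288 (minus strand) for Dio2, whose RefSeq start lies upstream of the gene end given in the table. Capitals mark AGGTCA, a hexamer read by many nuclear receptors, in Ucp1 and Ucp3, and the overlapping TGACGT of a cyclic AMP response element in Dio2.
Ucp1: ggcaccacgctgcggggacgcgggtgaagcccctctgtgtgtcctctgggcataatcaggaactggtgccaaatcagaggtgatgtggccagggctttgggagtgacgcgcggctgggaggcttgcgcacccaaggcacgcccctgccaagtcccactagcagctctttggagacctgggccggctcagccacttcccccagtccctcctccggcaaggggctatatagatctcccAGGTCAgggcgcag
Ucp2: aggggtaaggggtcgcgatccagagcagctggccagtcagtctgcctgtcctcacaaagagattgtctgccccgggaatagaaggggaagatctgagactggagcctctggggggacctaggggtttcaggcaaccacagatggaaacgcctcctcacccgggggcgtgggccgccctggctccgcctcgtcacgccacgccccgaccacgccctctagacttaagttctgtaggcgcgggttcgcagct
Ucp3: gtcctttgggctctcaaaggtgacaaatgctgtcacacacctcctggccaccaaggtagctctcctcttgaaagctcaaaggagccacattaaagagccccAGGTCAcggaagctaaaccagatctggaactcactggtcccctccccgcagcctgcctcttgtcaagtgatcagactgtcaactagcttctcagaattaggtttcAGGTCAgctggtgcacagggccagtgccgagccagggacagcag
Dio2: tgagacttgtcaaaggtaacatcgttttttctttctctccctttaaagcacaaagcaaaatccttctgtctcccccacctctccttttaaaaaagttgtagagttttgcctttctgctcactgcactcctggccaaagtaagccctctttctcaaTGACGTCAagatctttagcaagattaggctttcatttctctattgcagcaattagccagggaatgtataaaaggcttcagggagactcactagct
The motif AGGTCA began 14 bases before the start of Ucp1 and 149 and 44 bases before the start of Ucp3, and 14% of 32851 RefSeq promoter windows of that length hold it on either strand. TGACGT matched on both strands of Dio2, from 95 and 93 bases before the start, so that both matches lie in 1 palindrome, and 6.47% of the windows hold it. ACANNNTGT, the palindrome of a glucocorticoid response element, is in 5.84% of the windows and in none of the 5 matched here. These matches describe letters in a short window only.

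By position in the table (mm10), Ucp3 (ENSMUSG00000032942, chr7:100472990-100486432) and Ucp2 (ENSMUSG00000033685, chr7:100493337-100502020) are neighbors on the plus strand, 6904 bases apart. Ucp1 (ENSMUSG00000031710) lies at chr8:83290348-83298456, Elovl3 (ENSMUSG00000038754) at chr19:46131897-46135307 and Cidea (ENSMUSG00000024526) at chr18:67343564-67367794, all on the plus strand. Dio2 (ENSMUSG00000007682, chr12:90724554-90738438) and Prdm16 (ENSMUSG00000039410, chr4:154316125-154636873) are on the minus strand. Genes on the opposite strand overlap each of these but Ucp1, and whether counting used strand is not given in the sources used here. The partner with the most shared exon sequence, Dnajb13, overlaps 305 exon bases of Ucp2 and held 99 counts over the 18 libraries, against 6355 for Ucp2.

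Libraries held 10506661 to 14686654 counts. Levels are given as CPM, counts scaled to library size with TMM factors, and differences as log2 fold changes from edgeR ± SE. Each SE was derived as the absolute log2 fold change divided by the square root of the F statistic of its test. Such an SE is approximate, above all for genes with few counts, and the intervals of log2 fold changes rest on it. A gene was called at an adjusted p under 0.05 over 13596 tested genes. Elovl3 was too low to be tested, and Ucp1 and Cidea passed the filter on low counts only through treated groups, where they were high, so that their tests against vehicle give no support of their own for a difference. Myofiber transcripts were abundant in every library, the 10 myofiber markers summing to between 100631 and 180100 CPM. The 10 adipocyte markers, adiponectin (Adipoq) and perilipin 1 (Plin1) among them, summed to 356 to 805 CPM in the 6 vehicle libraries. They reached 5794 CPM in female weekly replicate 3, 3555 in female weekly replicate 1 and 3461 in female daily replicate 3, which stood apart from the rest. Lymphocyte markers stayed at or under 1.62 CPM in sum.

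Ucp1 was all but absent from vehicle muscle and was high in some treated mice only. The 3 male vehicle libraries held 0, 0 and 1 count, and the 3 female vehicle libraries 0, 0 and 2 counts. Weekly prednisone males held 69, 36 and 24 counts (6.06, 3.46 and 1.67 CPM), and daily prednisone males 22, 3 and 0 counts. In females the counts were 354, 0 and 3989 with weekly prednisone (23.7, 0 and 307 CPM) and 7, 327 and 441 with daily prednisone (0.537, 20.5 and 26.6 CPM). Treated females thus ranged from no count to the highest of all 18 libraries, and female weekly replicate 3 alone held 78.4% of the summed CPM. All 3 libraries lay above vehicle in weekly males and in daily females, while daily males and weekly females overlapped with vehicle.

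With 1 or 2 counts in the vehicle groups, the size of the Ucp1 difference is known only roughly, and intervals here cover counting error alone (95%, exact). Summed over a group, Ucp1 was 111 times the vehicle level in weekly males (interval 19.6 to 4432) and 19.2 times in daily males (3.15 to 790). The ratio was 1822 in weekly females (504 to 15049) and 274 in daily females (75.7 to 2268). Without the highest library, the ratio was 224 in weekly females (61.7 to 1861) and 186 in daily females (51.0 to 1541). In daily males, leaving out replicate 1 took it to 3.58 (0.288 to 188), an interval that spans no difference.

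Against the spread between mice, edgeR did not call Ucp1 in any comparison. The adjusted p was 0.149 in daily females, 0.663 in daily males, 0.849 in weekly males and 0.247 in weekly females. Over the mean of both sexes it was 0.151 for daily and 0.161 for weekly prednisone. Of the fits that left out 1 library, 1 of 6 in weekly females and 1 of 12 over both sexes called the weekly difference, in each case without female weekly replicate 2, the library with 0 counts (adjusted p = 0.0143 and 0.0158). That library also had the highest share of mitochondrial counts, 36.4% against 13.1% and 20.3% in female weekly replicates 1 and 3. It had the lowest sum of myofiber markers, 100631 CPM, and the highest of endothelial markers, 1377 CPM. Whether this bears on its Ucp1 was not tested. DESeq2 gave an adjusted p of 0.0248 in daily females and 0.00268 in weekly females. All these tests share the limit set by the filter.

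**Figure D1:**
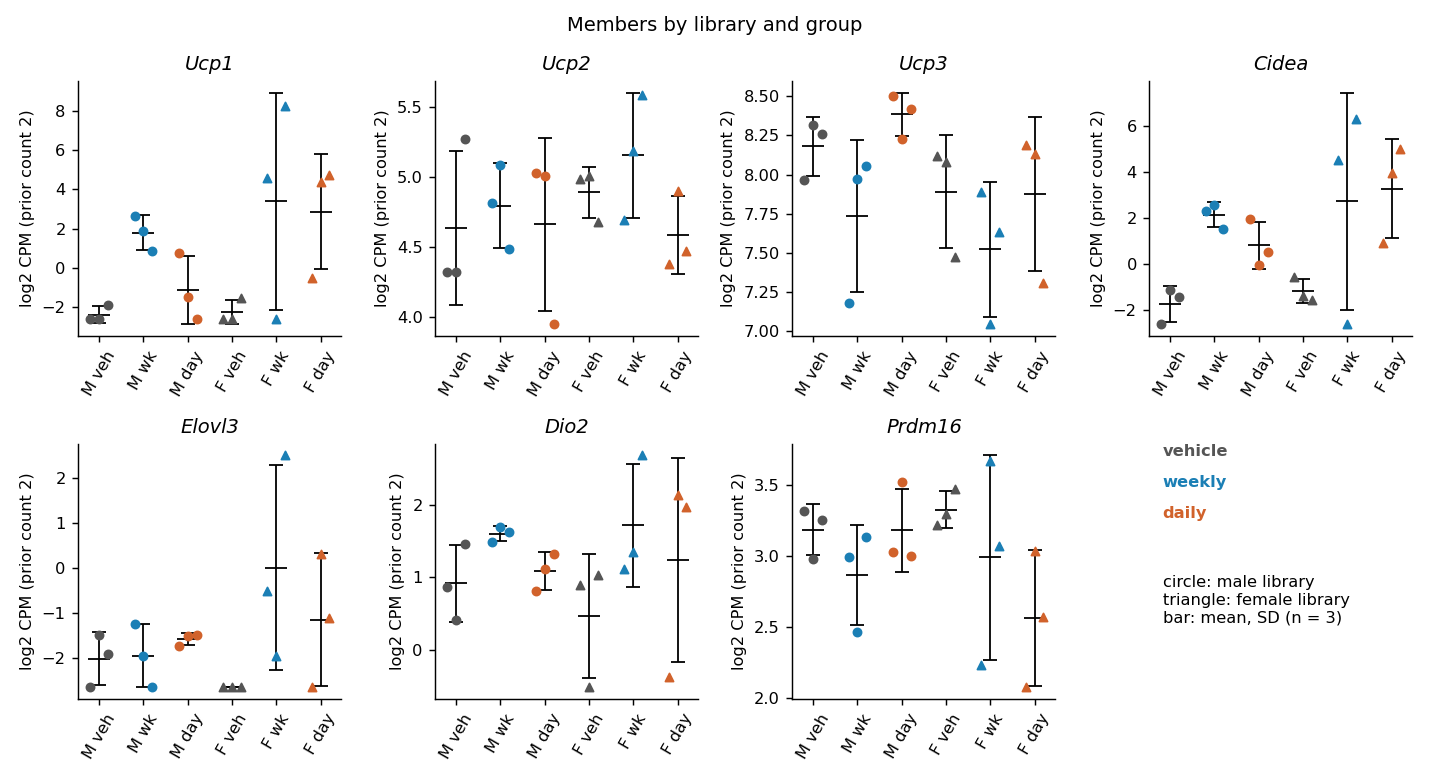
Level of each of the 7 genes in every library, as log2 CPM with a prior count of 2 (vertical axes, each with its own range), by sex (M, F) and treatment (veh, vehicle; wk, weekly; day, daily). Points are libraries, and horizontal bars with whiskers are the mean and SD of 3; Ucp1 and Cidea reach their highest values in females given prednisone, where the 3 libraries of a group are far apart, while Ucp2, Ucp3 and Prdm16 vary little.

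Cidea encodes a protein that helps lipid droplets fuse and is abundant in brown fat. Male vehicle libraries held 0, 3 and 2 counts and female vehicle libraries 6, 2 and 2 counts. In males, Cidea stood at 4.83, 5.76 and 2.72 CPM with weekly and at 3.68, 0.816 and 1.27 CPM with daily prednisone. In females it stood at 23.0, 0 and 77.9 CPM with weekly and at 1.69, 15.2 and 32.0 CPM with daily prednisone. Every daily library of either sex lay above all vehicle libraries of that sex, as did the 3 weekly males, whereas weekly females overlapped through replicate 2, with no Cidea count.

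Cidea was the 1 member called by edgeR in any comparison, and no vehicle library held more than 6 of its counts. With daily prednisone over the mean of both sexes it was higher by 4.60 ± 1.34 on the log2 scale (edgeR, adjusted p = 0.0332, n = 6 against 6 mice), where 15% of all tested genes were called. This call gives no support of its own, since Cidea passed the filter on low counts only through treated groups. With no filter on low counts it was not called (adjusted p = 0.0822). The call was held in 4 of 12 fits that each left out 1 library. Adjusted p reached 0.101 without male daily replicate 1, and it was 0.0722, 0.0550 and 0.0640 without male vehicle replicates 1, 2 and 3. Without female vehicle replicates 2 and 3 it was 0.0694 and 0.0619, and without female daily replicates 2 and 3 it was 0.0575 and 0.0713. Taken alone, daily females differed by 5.68 ± 1.66 (adjusted p = 0.112) and daily males by 3.51 ± 2.2 (adjusted p = 0.363). The weekly difference was 5.71 ± 1.27 over both sexes (adjusted p = 0.137) and reached an adjusted p of 0.0110 without female weekly replicate 2.

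Adipocyte transcripts moved with these values. With daily prednisone over both sexes, 8 of 10 adipocyte markers rose, led by Cidec (3.35 ± 0.69, adjusted p = 0.00631), a lipid droplet protein of white fat, Adipoq (2.99 ± 0.64, adjusted p = 0.00746), the adipokine adipsin (Cfd, 2.67 ± 0.57, adjusted p = 0.00755) and resistin (Retn, 2.51 ± 0.55, adjusted p = 0.00829). Leptin (Lep), 1 of the 8, passed the filter only with the treated libraries, so that its call gives no support of its own. With the adipocyte marker score of each library as a covariate, the Cidea difference was 0.40 ± 1.01 (adjusted p = 0.893), and that fit called 16 genes in place of 2033. The score, a mean of log2 CPM, was 2.66 to 3.66 in vehicle and 4.13 to 7.48 in treated libraries. It thus separates treated from vehicle libraries, and this fit cannot tell adipocyte content and treatment apart. Summed adipocyte markers ranged from 701 to 1571 CPM in daily males, 731 to 1266 in weekly males, 1184 to 3461 in daily females and 956 to 5794 in weekly females. No adipocyte marker was called with weekly prednisone over both sexes (lowest p for Cfd, 3.01 ± 0.58, adjusted p = 0.134).

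Ucp1 did not keep a fixed ratio to adiponectin. Female weekly replicate 1 and female daily replicate 3 carried about the same adipocyte sum, 3555 and 3461 CPM, and nearly the same Ucp1, 23.7 and 26.6 CPM. Female weekly replicate 3 had 5794 CPM of adipocyte markers and 307 CPM of Ucp1. Per 1000 CPM of Adipoq, Ucp1 amounted to 130 and 131 in the first pair of libraries, 928 in female weekly replicate 3, 389 in female daily replicate 2 and 283 in male weekly replicate 1. In the same units it was 0 in female weekly replicate 2 and 8.61 in female daily replicate 1. The highest vehicle library reached 16.9, on 2 counts. The ratio thus differed severalfold between mice of the same group. For Cidea it was 126, 0 and 235 in weekly females and 27.1, 288 and 158 in daily females.

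**Figure D2:**
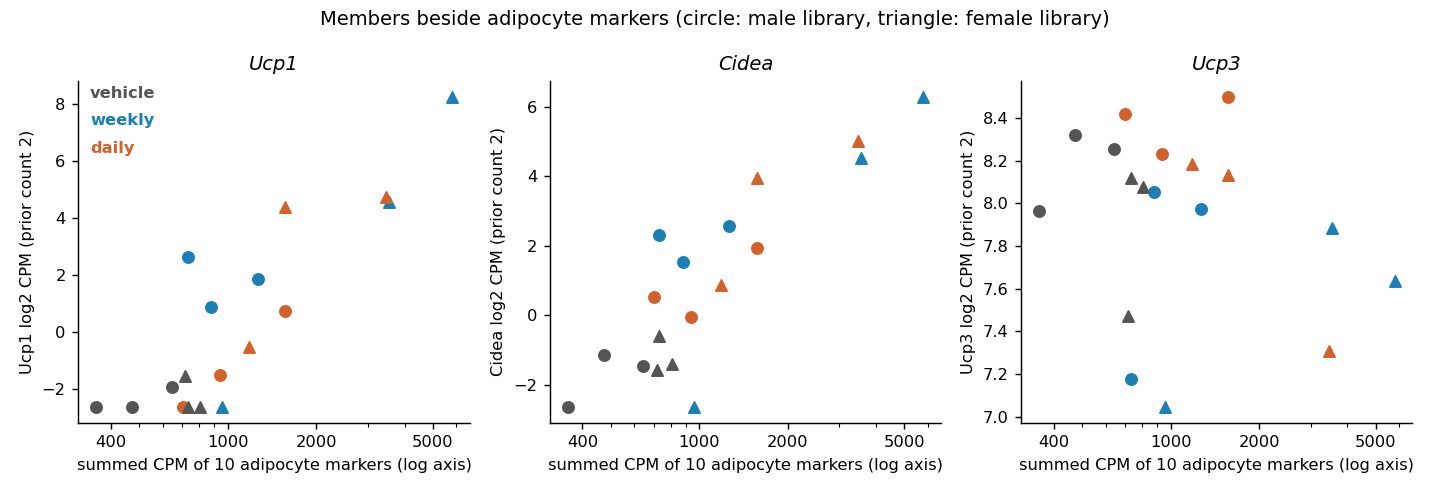
Log2 CPM (prior count 2) of Ucp1, Cidea and Ucp3 in each of 18 libraries (vertical axes) against the summed CPM of 10 adipocyte markers (horizontal log axis). The highest Ucp1 and Cidea levels, 307 and 77.9 CPM, are at the highest adipocyte sum, 5794 CPM, and Ucp3 shows no such order.

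Elovl3, an elongase of very long fatty acids that cold raises in brown fat, was near the limit of detection. Males held 0, 2 and 1 counts with vehicle, 3, 1 and 0 with weekly and 2, 3 and 2 with daily prednisone. Female vehicle libraries held none, weekly females 8, 1 and 71 counts, and daily females 0, 17 and 5 counts. All weekly females lay above vehicle, though 1 of them by a single count. Relative to a floor of 3 counts over the vehicle group, Elovl3 was 22.4-fold higher in weekly females. Against the 0 vehicle counts, without that floor, the exact 95% interval of the ratio had a lower limit of 17.8. This limit covers counting error alone and not the spread between mice. Of the summed CPM over all libraries, 63.2% came from female weekly replicate 3. Without that library the ratio to the floor and the lower limit were 3.8 and 2.50. For daily females they were 5.19 and 3.88, and 1.81 and 0.997 without female daily replicate 2. An exact two-sided permutation test within sex gave a log2 difference of 0.96 for daily (p = 0.08) and 1.35 for weekly prednisone (p = 0.095), with 6 against 6 libraries and 0.005 as the smallest p possible. In males, Elovl3 was 1.80 times the vehicle level with daily (0.410 to 10.8) and 1.15 times with weekly prednisone (0.195 to 7.86).

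Dio2 encodes the deiodinase that turns thyroxine into the active hormone T3 and is induced in active brown fat. It was at 1.67, 1.18 and 2.60 CPM in male vehicle libraries, 2.64, 3.07 and 2.92 in weekly males and 1.60, 2.01 and 2.35 in daily males. Female libraries had 1.69, 0.543 and 1.88 CPM with vehicle, 2.01, 2.39 and 6.23 with weekly and 0.614, 4.21 and 3.74 with daily prednisone. Weekly libraries lay above vehicle in both sexes, by a narrow margin in males, and daily libraries overlapped with vehicle. The weekly difference over both sexes was 1.0 ± 0.41 on the log2 scale and was not called (edgeR, adjusted p = 0.375), nor was the daily difference of 0.58 ± 0.42 (adjusted p = 0.385). Of the other 9 thyroid hormone genes, 7 were tested. With daily prednisone over both sexes 1 of them was called, near the 15% share over all tested genes. This was Klf9, a transcription factor induced by both thyroid hormone and glucocorticoids, which rose (0.61 ± 0.13, edgeR, adjusted p = 0.00565).

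Prdm16, a transcriptional regulator that directs precursors to the brown fat fate, was present in every library at 4.07 to 12.5 CPM and did not follow Ucp1. It stood at 9.14, 9.66 and 10.9 CPM in female vehicle libraries and at 4.07, 8.04 and 5.79 CPM in daily females, all 3 below vehicle. The difference of -0.72 ± 0.31 was not called (edgeR, adjusted p = 0.231). Weekly females had 4.55, 12.5 and 8.24 CPM, the highest being female weekly replicate 2, which held no Ucp1. Males had 9.83, 7.74 and 9.36 CPM with vehicle, 7.82, 5.38 and 8.63 with weekly and 7.99, 11.3 and 7.83 with daily prednisone, groups that overlapped. Over both sexes the difference was -0.35 ± 0.22 for daily and -0.27 ± 0.22 for weekly prednisone (adjusted p = 0.297 and 0.678).

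Ucp3 was the most abundant member per length, with a median of 109 CPM per kilobase of exon over the libraries. Levels were 250, 319 and 305 CPM in male vehicle libraries, 145, 251 and 265 in weekly males and 362, 300 and 342 in daily males. In females they were 277, 270 and 178 CPM with vehicle, 236, 132 and 199 with weekly and 291, 280 and 158 with daily prednisone. Each treated group overlapped with its vehicle group. Over both sexes, Ucp3 differed from vehicle by 0.10 ± 0.19 with daily and by -0.38 ± 0.19 with weekly prednisone on the log2 scale (adjusted p = 0.769 and 0.489), intervals reaching from -0.30 to 0.51 and from -0.78 to 0.03. Daily libraries exceeded weekly ones by 0.48 ± 0.19, which was not called (adjusted p = 0.132).

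Ucp2 ranged from 15.3 CPM in male daily replicate 3 to 47.8 CPM in female weekly replicate 3. Male libraries had 19.8, 19.8 and 38.4 CPM with vehicle, 27.9, 33.8 and 22.2 with weekly and 32.4, 32.0 and 15.3 with daily prednisone. Female libraries had 31.5, 31.9 and 25.4 CPM with vehicle, 25.6, 36.1 and 47.8 with weekly and 20.6, 29.7 and 22 with daily prednisone. No treated group lay apart from vehicle, and differences over both sexes were -0.13 ± 0.22 for daily and 0.20 ± 0.22 for weekly prednisone (adjusted p = 0.749 and 0.773). The 95% interval of the daily difference, -0.60 to 0.34, leaves room for changes of moderate size. Macrophage markers, of cells in which Ucp2 is abundant, summed to 100.4, 98.1 and 134 CPM in weekly females and to between 39.0 and 81.2 CPM in the other 15 libraries.

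Per kilobase of exon, the order of medians was Ucp3 (109 CPM), Ucp2 (7.22), Cidea (1.33), Prdm16 (0.946), Dio2 (0.375), Ucp1 (0.222) and Elovl3 (0.0615). Ucp3 exceeded Ucp2 in 18 of 18 libraries and Prdm16 exceeded Dio2 in 17 of 18. Other neighbors in this order were not separated, Cidea lying above Prdm16 in 10, Dio2 above Ucp1 in 9, Ucp2 above Cidea in 14 and Ucp1 above Elovl3 in 12 of 18 libraries. Ucp1 had the widest range, from 0 to 188 CPM per kilobase, and in female weekly replicate 3 it surpassed the highest Ucp3 level, 148.

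**Figure D3:**
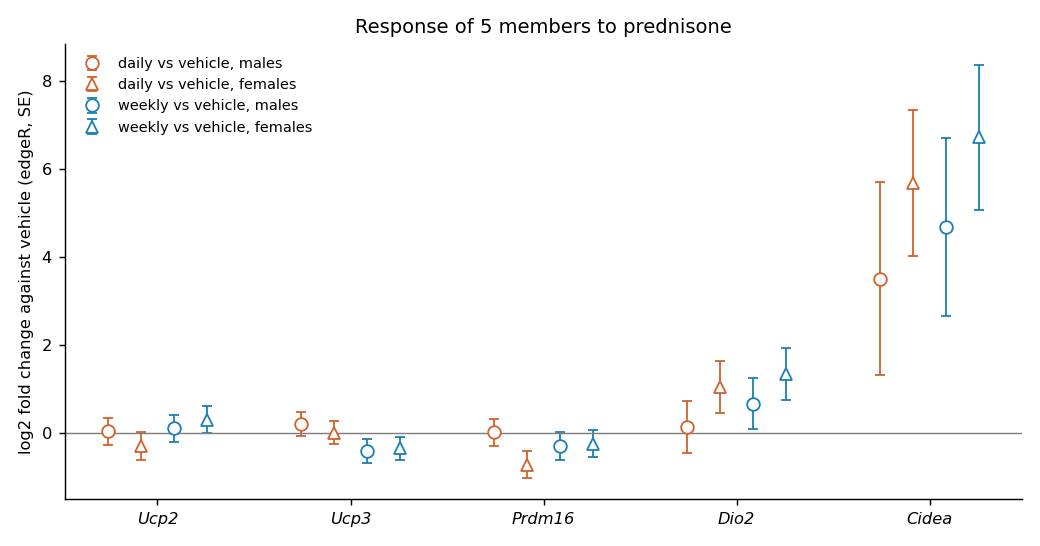
Log2 fold change against vehicle with its SE (vertical axis, edgeR) for 5 of the genes, by sex and regimen, each from 3 against 3 libraries. Open symbols are differences not called, which holds for all 20 points; Cidea lies between 3.51 and 6.72 with wide errors, Dio2 between 0.13 and 1.34, Ucp2 between -0.30 and 0.30, Ucp3 between -0.40 and 0.20, and Prdm16 between -0.72 and 0.014.

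The members' calls were read against those of all genes. In daily males edgeR called 0 members and 6.46% of tested genes, with 0 members and 22.8% of genes at an unadjusted p under 0.05. In daily females it called 0 members and 0.382% of genes, with 3 members (Ucp1, Cidea and Prdm16) and 17.3% of genes at an unadjusted p under 0.05. Weekly prednisone gave 0 called members and 0 called genes in males, in females and over both sexes (percent called 0), with 1, 3 and 3 members and 777, 1083 and 1492 genes at an unadjusted p under 0.05. DESeq2 called 1, 152 and 183 genes there, Ucp1 and Cidea among them in females and over both sexes. Daily against weekly prednisone gave 0 called members beside 8.17% of genes, and 2 members (Ucp1 and Ucp3) beside 24.1% of genes at an unadjusted p under 0.05. Groups that did not overlap were common, at 33.4% of tested genes in daily males (Cidea of the 7) and 23.1% in daily females (Ucp1, Cidea and Prdm16). The shares were 16.7% in weekly males (Ucp1, Cidea and Dio2) and 8.06% in weekly females (Dio2). Elovl3 also lay above vehicle in weekly females, by 1 count in replicate 2, but it was not tested and is outside that share.

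No sex difference was called for these genes. Between vehicle groups 0 members were called (0 unadjusted, edgeR) beside 0.765% of tested genes. The sex difference of the daily and of the weekly response called 0 members and 0 genes, 638 and 357 genes having an unadjusted p under 0.05, and DESeq2 called 2 and 0 genes. For Cidea, the response was larger in females by 2.17 ± 3.85 with daily and 2.04 ± 3.81 with weekly prednisone (log2). Neither was called (edgeR, unadjusted p = 0.581 and 0.601), and either direction remains possible. For Prdm16 the daily response in females minus that in males was -0.74 ± 0.43 (adjusted p = 0.889), and for Ucp2 and Ucp3 both differences stayed between -0.33 and 0.20.

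Of 18 other genes known from brown fat, 14 could be tested. With daily prednisone over both sexes, where 15% of all tested genes were called, 3 rose and 2 fell. Of the 14, 6 passed the filter only with the treated libraries, Adrb3 and Nrg4 among them, so that calls of such genes give no support of their own for a rise. Those that fell were Cox8b (-0.99 ± 0.14, adjusted p = 0.000718) and Cox7a1 (-0.92 ± 0.16, adjusted p = 0.00184), respiratory chain subunits that striated muscle also makes. Those that rose were Adrb3 (4.5 ± 0.94, adjusted p = 0.00647), the beta-adrenergic receptor of fat cells, Slc36a2 (2.68 ± 0.70, adjusted p = 0.0199), an amino acid transporter, and Nrg4 (2.36 ± 0.63, adjusted p = 0.0209), a secreted factor of brown fat named here after its value was seen. Cox8b and Cox7a1 also fell in daily males (-1.22 ± 0.20 and -1.14 ± 0.22, adjusted p = 0.00705 and 0.0109) and were lower with daily than with weekly prednisone (-0.82 ± 0.14 and -0.85 ± 0.16, adjusted p = 0.00692 and 0.00789). Weekly prednisone over both sexes called none of the 14 (8 unadjusted, edgeR), Adrb3 having the lowest p (4.81 ± 0.94, adjusted p = 0.134).

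Female weekly replicate 3 was the highest of 18 libraries for 8 of these 14 genes and for 4 of the 6 tested members. The share was 9.11% over all tested genes, and 8 of 10 adipocyte and 6 of 10 macrophage markers were also highest there. However, 6 of the 14 genes and 2 of the 6 members (Ucp1 and Cidea) passed the filter only through treated libraries. The filter thus favored a treated library as their highest, and these counts give no support of their own for a rise. In female weekly replicate 3, Slc27a2, a fatty acid transporter, reached 24.7 CPM, Kcnk3, a potassium channel, 32.0 CPM and Otop1, a proton channel, 13.2 CPM, 3 genes chosen after their values were seen. In vehicle libraries these stayed at or under 0.104, 0.805 and 0.537 CPM. Zic1, Lhx8 and Bmp8b, also used to mark brown fat, were at 0.385, 0.616 and 0 CPM in the same library. Their highest vehicle values were 0.790, 0.179 and 0.268 CPM, so that Lhx8, though low, was highest in this library as well. Of 6 genes used to mark beige fat, 4 were tested and none was called with daily or weekly prednisone over both sexes (1 and 0 unadjusted, edgeR), Hoxc9 having the lowest p in both (-0.32 ± 0.13, adjusted p = 0.121, and -0.28 ± 0.14, adjusted p = 0.465).

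**Figure D4:**
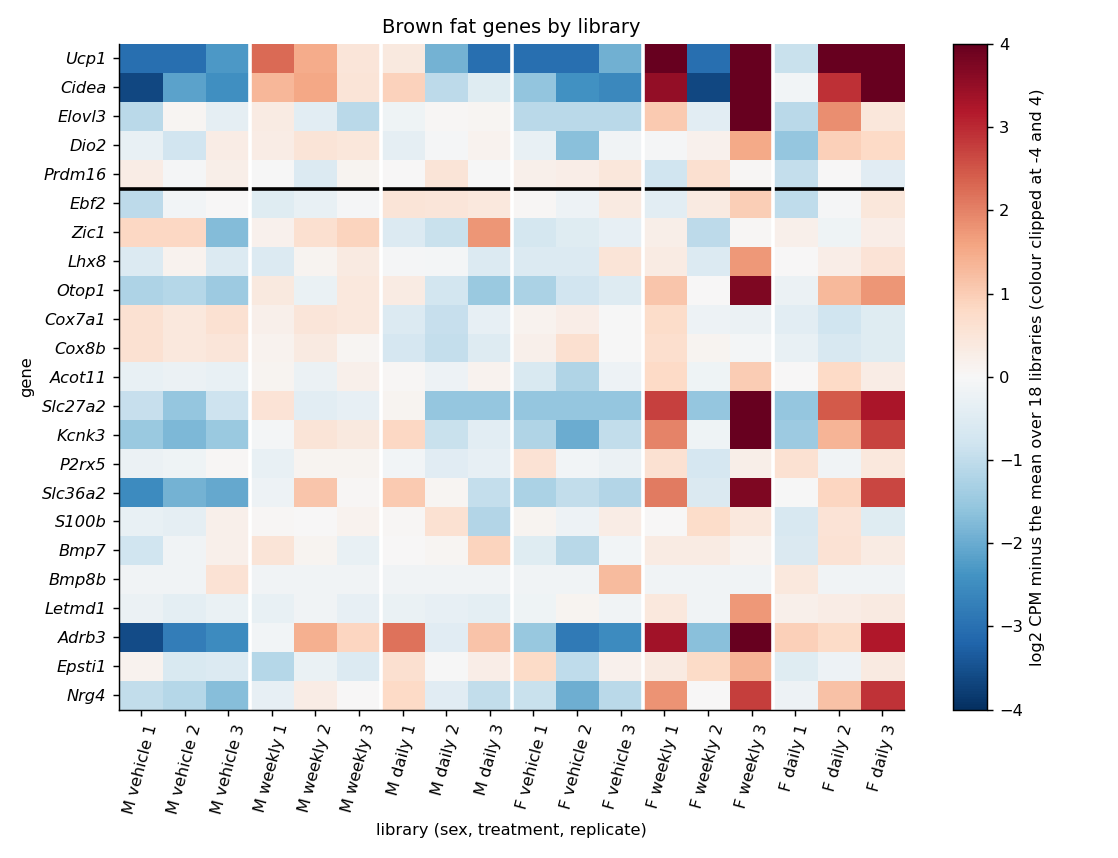
Log2 CPM of 5 of the members (above the black line) and 18 other genes known from brown fat, each minus its mean over the 18 libraries (color, clipped at -4 and 4), with libraries in columns and genes in rows. Red blocks gather in female weekly replicates 1 and 3 and female daily replicates 2 and 3, while Cox7a1 and Cox8b are below their mean in all 6 daily libraries and Zic1, Bmp8b and Prdm16 show no such block.

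Regulators and partners of these genes were also read with daily prednisone over both sexes, where the share over all tested genes was 15%. These lists are too short for their counts of calls to be set apart from that share. Among 15 regulators of thermogenesis (14 tested), the 1 called was Ppargc1b, a coactivator of mitochondrial genes that rose (1.11 ± 0.33, adjusted p = 0.0343). Of 9 genes for heat production without Ucp1 (8 tested), none was called with daily prednisone against vehicle (2 unadjusted, edgeR), and Ryr1 and Atp2a1, the calcium release channel and calcium pump of fast fibers, were higher with daily than with weekly prednisone (0.66 ± 0.12 and 0.51 ± 0.14, adjusted p = 0.00789 and 0.0322). Among 5 mitochondrial carriers related to the uncoupling proteins, none was called with daily prednisone over both sexes (2 unadjusted, edgeR), Slc25a14 having the lowest p (-0.54 ± 0.20, adjusted p = 0.0878).

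In lipid metabolism, where Elovl3 and Cidea act, 4 of 11 tested genes (13 in all) of fatty acid elongation and desaturation were called with daily prednisone over both sexes, beside 15% of all tested genes. Scd1 (2.49 ± 0.62, adjusted p = 0.0165), Hacd2 (1.68 ± 0.43, adjusted p = 0.0183) and Hsd17b12 (1.19 ± 0.38, adjusted p = 0.0455) rose, and the muscle form Hacd1 fell (-0.47 ± 0.14, adjusted p = 0.0323). Of 7 tested lipid droplet proteins, Plin4 rose (0.88 ± 0.20, adjusted p = 0.0095) and Fitm1 fell (-0.52 ± 0.14, adjusted p = 0.0193). Calls were no more frequent than over all genes in the lists of the fasting response and of glucocorticoid receptor targets. Of 18 genes of the fasting and fatty acid response, to which Ucp3 also belongs, 2 were called, and Angptl4 (1.75 ± 0.48, adjusted p = 0.0241) and Cpt1b (0.72 ± 0.22, adjusted p = 0.0355) rose. Of 10 targets of the glucocorticoid receptor, 1 was called, and Zbtb16 rose (0.56 ± 0.15, adjusted p = 0.019).

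Across the 18 libraries, the tested genes whose log2 CPM was most like that of Ucp1 were Clstn3 (Pearson r = 0.97, Spearman rho = 0.93), Slc27a2 (r = 0.95, rho = 0.93) and Cidea (r = 0.95, rho = 0.84). For Cidea they were Prkar2b (r = 0.97), Arxes2 (r = 0.96) and Plin1 (r = 0.96). For Dio2 they were Mpp7 (r = 0.90), Sh3bgrl (r = 0.85) and Rnf24 (r = 0.84), for Prdm16 Tnfrsf1b (r = 0.89), Hk1 (r = 0.87) and Tmem45a (r = 0.87), and for Ucp2 Rarres2 (r = 0.85), Snn (r = 0.84) and Dok1 (r = 0.82). Ucp3 was most like Mast2 (r = 0.89), Wdr33 (r = 0.82) and Pdk4 (r = 0.81), a kinase that restrains glucose oxidation. For Pdk4, r was 0.91 with group means removed, but 0.67 without the 2 libraries farthest from the Ucp3 median, and Spearman rho was 0.65. These are descriptions over points that share a library, its depth and its cell makeup, picked as the highest of 13595 genes.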

How the data were processed

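Quadriceps myofibers of 18 mice had been sequenced, 1 library a mouse. The authors deposited unnormalized counts of reads per gene, as whole numbers. The submitters' processing notes name TopHat2 2.1.0, Bowtie2 2.2.6 and HTSeq and the build mm10. Strand setting and annotation release are not given in the sources used here. The 7 genes and the gene lists were chosen with earlier results of these data known.

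Counts were filtered with filterByExpr (minimum count 10), scaled with TMM factors and fitted with edgeR 4.0.16 (robust quasi-likelihood, 6 group means, R 4.3.3), with p-values adjusted by the Benjamini-Hochberg method over 13596 genes. These steps were tested on simulated data. The low gene Elovl3 was compared by exact permutation within sex. Levels per kilobase used exon lengths from GENCODE M21 (basic), since the length column deposited with the counts exceeds the exon union in 14854 of 42462 genes. Of the lists, genes that were called (up to 4, lowest p first) or the gene with the lowest p were named, and for likeness the 3 genes with the highest r. Pairs of libraries of one group differed by more than sampling noise.

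Alternatives were DESeq2 size factors, DESeq2 1.42.0, no filter, a mean of at least 1 CPM, the compared groups alone, a prior count of 0.5 for Elovl3, the replicate number as a block, adipocyte or macrophage scores as covariates, and leaving out each library. The vehicle libraries are shared by the daily and weekly comparisons. The number in each sample title served as the replicate number and did not pair treated with vehicle libraries, whereas same-numbered weekly and daily females deviated together. Sample descriptions carry other numbers for some libraries of each group, so that what a shared title number stands for is not known.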

Additional observations from a re-analysis of the deposited data

How the results depend on the processing

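Of 170 alternative counts of called members, 18 differed from the one reported. With DESeq2, 2 members (Ucp1 and Cidea) were called in daily females, over both sexes with daily prednisone, in weekly females and over both sexes with weekly prednisone. With the compared groups alone, 1 was called in daily males (Cidea) and 2 over both sexes with daily prednisone. Without a filter on low counts, or with the adipocyte score as a covariate, 0 were called with daily prednisone over both sexes. Leaving out each library gave 0 to 1 called members there, 0 to 3 in weekly females and 0 to 2 with weekly prednisone over both sexes. The highest were without female weekly replicate 2, which called Ucp1 and Cidea and, in females, Elovl3, which passes the filter once a group has 2 libraries. With 1 library left out, the Elovl3 difference ranged from 0.60 to 1.33 for daily and from 0.73 to 1.85 for weekly prednisone. A prior count of 0.5 gave 1.78 and 2.16 at the same p, and edgeR with no filter 3.20 and 3.94 (adjusted p = 0.423 and 0.721). Exact p fell to 0.02 without male vehicle replicate 2 or female daily replicate 1, and to 0.025 without male weekly replicate 3.

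Signs turned only in differences that were not called. In daily males, the adipocyte covariate gave -0.66 for Ucp1, -0.14 for Ucp2 and -0.41 for Dio2, and the macrophage covariate -0.038 for Ucp2 and -0.024 for Dio2. With the adipocyte covariate, Ucp3 was -0.19 in daily females and -0.075 over both sexes, where Dio2 was -0.095 and Prdm16 0.072. In weekly libraries it gave -0.072 for Ucp2 and 0.046 for Prdm16 in males, 0.22 for Prdm16 in females, and -0.014 for Ucp2 and 0.13 for Prdm16 over both sexes. The macrophage covariate gave -0.10 for Ucp2 in weekly females, -0.028 for Ucp2 with weekly prednisone over both sexes, and 0.24 for Cidea and 0.11 for Dio2 between daily and weekly. With 1 library left out, daily males ranged from -0.13 to 0.45 for Ucp2, -0.088 to 0.48 for Dio2 and -0.18 to 0.14 for Prdm16, daily females from -0.16 to 0.24 for Ucp3, and both sexes from -0.22 to 0.082 for Ucp2. Weekly males ranged from -0.057 to 0.50 for Ucp2, weekly females from -0.66 to 0.060 for Prdm16, and daily against weekly from -0.24 to 0.14 for Prdm16. The causes were not tested.

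The titles number the replicates, but same-numbered libraries did not deviate together in any treated and vehicle pair of groups. They did in weekly and daily females (r = 0.50, 0.48 and 0.44 over genes), not in weekly and daily males (r = 0.12, -0.29 and 0.20), and the block left 0 members called between daily and weekly. With the replicate block, the count of called members was the same in every comparison, Cidea keeping its call (adjusted p = 0.0443), Prdm16 in daily males was -0.016, and genes called in daily females went from 52 to 8. The gene count there was 530 with DESeq2, 29 with no filter, 2 with the macrophage covariate and 0 with the adipocyte covariate or the compared groups alone. In daily males 878 became 1331, 175 and 1530 with DESeq2, the adipocyte covariate and the compared groups alone, and between daily and weekly 1111 became 677 with the macrophage covariate and 535 with the compared groups alone. Between vehicle groups, 104 became 235 with DESeq2. Counting depth limits Ucp1, Cidea and Elovl3 in vehicle libraries, which held at most 6 counts of each.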
